A study of Rattus norvegicus with 12 samples.

Results

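Leukocyte marker genes were examined in the renal cortex of rats given bromodichloromethane (BDCM), which forms when drinking water is chlorinated and is toxic to the rodent kidney. The set held 36 genes in 6 classes, chosen by name: 2 pan-leukocyte, 16 macrophage and monocyte, 8 T cell, 3 B cell, 2 cytotoxic and natural killer (NK) cell and 5 neutrophil genes. Probes were assigned to genes through their RefSeq transcript accession. In all, 32 of the 36 genes had a probe (54 probes), out of 15284 genes named on the array, and 30 passed the filter on dim signals, out of 12208. No probe was assigned to Itgax, Cd79a, Ms4a1 or Mpo, and Cd163 and Cd5 were too dim to test.

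All animals were male Sprague-Dawley rats, bought at 5 weeks of age, with 3 rats in each of 4 groups and 1 single-colour Agilent array per rat. Controls received corn oil for 4 weeks and treated rats received BDCM at 200 mg/kg per day. Tissue was collected 24 h after the last dose, after bleeding under CO2-O2 in the experiment labelled B92 and under isoflurane in the experiment labelled B103. Signals are given as the log2 processed signal relative to the 75th percentile of the same array, so that 1 unit is a 2-fold change and 0 is the level of the 75th percentile. They were fitted with limma across all 34218 features that passed the filter. A gene was called when its p, adjusted by Benjamini and Hochberg's method over all of these features, was under 0.05, and "rose" and "fell" are used for called genes.

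Leukocytes share receptors and adaptors by which their types can be told apart in tissue RNA. Macrophages, the main leukocytes resident in the renal cortex, carry receptors for antibody (Fc receptors), lipopolysaccharide and growth factors and make complement C1q. T cells carry the CD3 chains of the antigen receptor, B cells the CD79 chains, and neutrophils hold large stores of the calcium-binding proteins S100A8 and S100A9. In whole cortex, fewer cells of a type and less RNA per cell cannot be told apart.

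Many leukocyte promoters hold the core motif bound by the ETS factor PU.1, the product of Spi1, and the promoters below are those of 4 of the genes that were called, 3 with the motif and 1 without it. Promoter sequences were taken from RefSeq (assembly GRCr8) for 27 of the 36 genes, which gave 29 entries. The 250 bases before the start site held the motif GAGGAA, or its reverse complement TTCCTC, in 17 of the 29 entries (58.6%), against 7812 of all 33469 promoters (23.3%). The 17 entries belonged to 17 genes, Laptm5, Fcgr2a and Cd2 among them, and Cd14, which rose and is not printed (2 matches). The letters were not in the window of Cx3cr1 or in the second entry of Fcgr2a. The windows of some genes, Cx3cr1 and Fcgr2a among them, lie inside the gene's listed span and so do not precede its outermost start. Matches were not set against the direction of change. A match is a description of sequence and was not set against binding. Capitals mark the matches in the sequences, each written 5′ to 3′ on the strand of the gene. Laptm5 lies on the plus strand (chr5:148371630-148371879), Fcgr2a on the minus strand (chr13:85828686-85828935, the first of its 2 entries), Cd2 on the minus strand (chr2:191412660-191412909) and Cx3cr1 on the minus strand (chr8:128677067-128677316).
Laptm5: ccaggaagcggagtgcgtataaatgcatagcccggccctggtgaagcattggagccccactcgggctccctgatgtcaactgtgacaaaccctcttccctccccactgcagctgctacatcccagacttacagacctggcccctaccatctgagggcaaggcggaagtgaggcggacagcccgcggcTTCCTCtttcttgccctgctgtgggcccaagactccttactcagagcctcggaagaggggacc
Fcgr2a: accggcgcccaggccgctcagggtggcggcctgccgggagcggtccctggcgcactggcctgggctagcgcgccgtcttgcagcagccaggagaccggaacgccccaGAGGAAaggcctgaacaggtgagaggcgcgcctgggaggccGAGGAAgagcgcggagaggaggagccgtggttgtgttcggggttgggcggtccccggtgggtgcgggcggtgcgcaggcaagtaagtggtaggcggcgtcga
Cd2: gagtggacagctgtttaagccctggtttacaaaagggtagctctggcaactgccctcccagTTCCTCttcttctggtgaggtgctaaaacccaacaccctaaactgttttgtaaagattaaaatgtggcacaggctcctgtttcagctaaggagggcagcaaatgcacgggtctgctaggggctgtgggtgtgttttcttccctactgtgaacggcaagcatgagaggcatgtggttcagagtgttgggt
Cx3cr1: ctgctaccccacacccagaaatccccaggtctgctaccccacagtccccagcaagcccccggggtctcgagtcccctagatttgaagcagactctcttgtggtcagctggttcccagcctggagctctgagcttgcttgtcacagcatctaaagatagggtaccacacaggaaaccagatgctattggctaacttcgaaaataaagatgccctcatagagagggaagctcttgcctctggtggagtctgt

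Of the 30 genes tested, 2 rose and 4 fell in the mean of both experiments (6 treated and 6 control rats), and 24 were not called. Cd14 and Cx3cr1, both monocyte and macrophage receptors, rose by about 1.6-fold (1.56 and 1.57). Padi4 fell to 0.326 of the control level, Cd2 to 0.613, Fcgr2a to 0.786 and Laptm5 to 0.8125. Over all 34218 features, 17.7% were called higher and 20.4% lower, so that the members were called no more often than the array as a whole. Their median difference was -0.17 on the log2 scale, against -0.045 over all features, and 22 of the 30 differences were negative. The share of all features with a negative difference was not counted, and their median was itself negative.

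**Figure D1:**
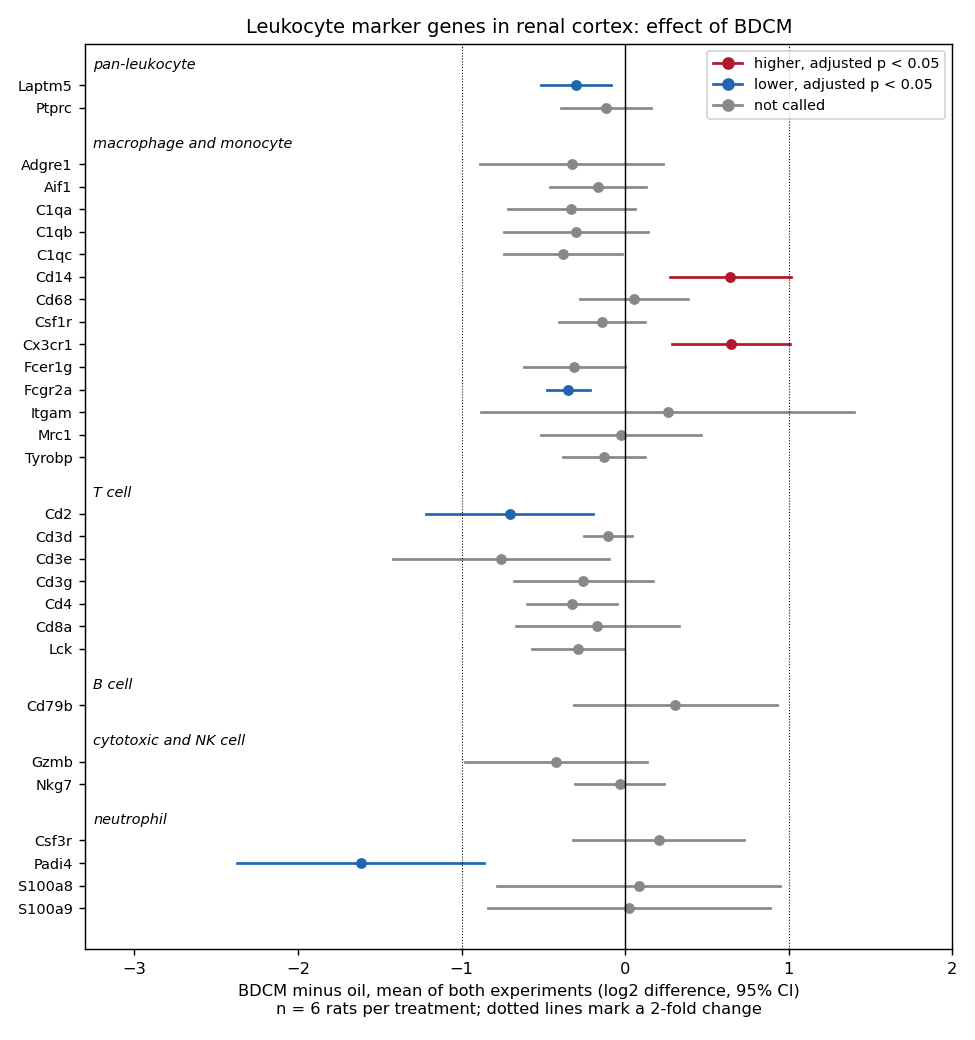
Difference between BDCM and oil rats for the 30 genes tested, as the mean of both experiments (log2 scale, horizontal axis), with 95% confidence intervals; red marks genes called higher, blue lower and grey not called. Most intervals lie between the dotted lines at a 2-fold change, those of Cd14 and Cx3cr1 lie to the right of 0, and that of Padi4 lies farthest to the left.

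For 24 of the 30 genes the 95% confidence interval of this difference lay within a 2-fold change in either direction, against 84.9% of all features. The exceptions were Cd14, Cx3cr1, Itgam, Cd2, Cd3e and Padi4. For 27 of the 30 the upper bound was below a 2-fold rise.

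In the CO2-O2 experiment alone, Cd14 rose and Fcgr2a and Padi4 fell (all features: 10.0% higher and 9.89% lower). In the isoflurane experiment alone, none of the 30 rose, and Fcgr2a, Padi4 and Cd3e fell (all features: 13.2% higher and 12.9% lower). The direct test of the difference between the experiments' BDCM effects, an interaction contrast in limma, called 0% of all features and none of the members. At an unadjusted p under 0.05 it gave 1731 features and 0 members, and the lowest adjusted p of a member was 0.9348. Oil and BDCM rats overlapped in neither experiment for Cd14 and Cx3cr1 (higher) and Fcgr2a (lower), and for 13.5% of all features upward and 13.1% downward.

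Both pan-leukocyte genes were well above background on all 12 arrays. Ptprc encodes CD45, the tyrosine phosphatase on the surface of all leukocytes. Its level was 0.29, 0.03 and 0.10 in oil rats 1 to 3 of the CO2-O2 experiment and -0.09, -0.05 and 0.32 in the BDCM rats. In the isoflurane experiment it was 0.06, -0.21 and -0.29 under oil and -0.22, -0.65 and -0.01 under BDCM. The groups overlapped in both experiments, and the mean difference was -0.12 (SE 0.123, adjusted p = 0.4922). All 5 probes of Ptprc gave differences below 0, from -0.39 to -0.12, and none was called.

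Laptm5, a lysosomal membrane protein of blood cells, was at 3.48, 3.08 and 3.20 in the oil rats and 2.77, 2.89 and 3.08 in the BDCM rats of the CO2-O2 experiment. With isoflurane its level was 3.15, 2.91 and 3.02 in the oil rats and 2.82, 2.56 and 2.92 in the BDCM rats. Each experiment had 1 BDCM rat that reached the lowest oil rat, and the mean fell by 0.30 (SE 0.096, adjusted p = 0.0316). The call was lost without any 1 of 7 rats, with adjusted p up to 0.0731: oil rats 1 and 3 and BDCM rats 1 and 2 of the CO2-O2 experiment, and oil rats 1 and 3 and BDCM rat 2 of the isoflurane experiment. With the slide as a fixed block, adjusted p was 0.1426.

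**Figure D2:**
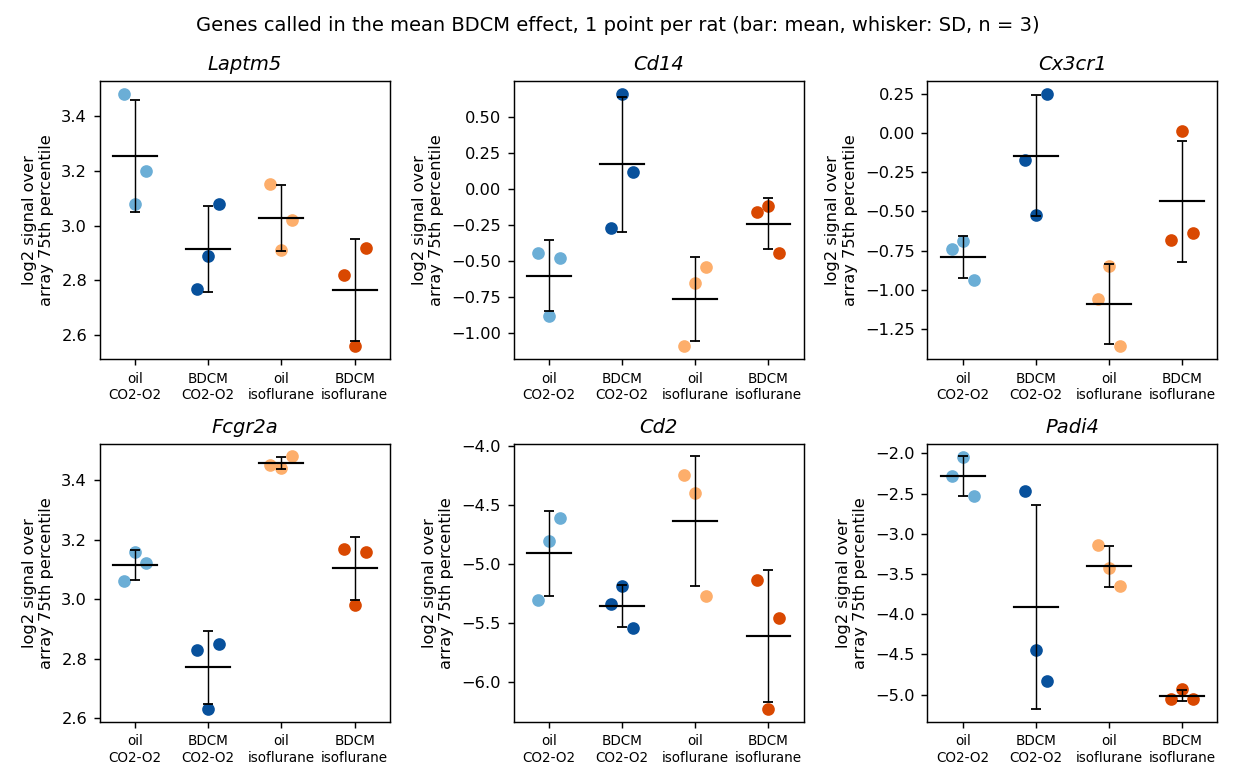
Level of the 6 genes called in the mean effect, 1 point per rat, in each of the 4 groups (log2 signal relative to the array's 75th percentile, vertical axes that differ between panels); bars mark the mean and whiskers the SD of 3 rats. The BDCM points of Cd14 and Cx3cr1 lie above, and those of Fcgr2a below, the oil points of the same experiment, and in Padi4 BDCM rat 1 of the CO2-O2 experiment (-2.47) lies among the oil rats.

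Of the 14 macrophage and monocyte genes tested, 2 rose, 1 fell and 11 were not called in the mean effect (all features: 17.7% higher and 20.4% lower). Cd14, the co-receptor for lipopolysaccharide, was at -0.44, -0.88 and -0.48 in the oil rats of the CO2-O2 experiment and at -0.27, 0.66 and 0.12 in the BDCM rats. In the isoflurane experiment it was at -1.09, -0.65 and -0.54 under oil and at -0.16, -0.12 and -0.44 under BDCM. Every BDCM rat was above every oil rat of its own experiment. The mean difference was 0.64 (SE 0.166, adjusted p = 0.0119), and both probes of the gene were called, at 0.64 and 0.75.

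The rise of Cd14 kept its call without each of the 12 rats in turn (adjusted p from 0.003924 to 0.0306). Within the CO2-O2 experiment alone the difference was 0.77 (SE 0.235, adjusted p = 0.0443), and that call was lost without any 1 of 10 rats, all but BDCM rat 1 of the same experiment and oil rat 1 of the isoflurane experiment. Under isoflurane the difference was 0.52 (SE 0.235, adjusted p = 0.1324).

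Cx3cr1, the receptor for fractalkine on monocytes and resident macrophages, was at -0.74, -0.69 and -0.94 in the oil rats of the CO2-O2 experiment and at -0.17, -0.52 and 0.25 in the BDCM rats. Under isoflurane its level was -1.06, -0.85 and -1.36 with oil and -0.68, 0.01 and -0.64 with BDCM. The BDCM rats were again above all oil rats of their experiment, BDCM rat 3 (CO2-O2) and BDCM rat 2 (isoflurane) the most. The mean difference was 0.65 (SE 0.163, adjusted p = 0.0105), with 0.64 and 0.65 in the CO2-O2 and isoflurane experiments, neither of them called. A second probe gave 0.28 and was not called, and with the slide as a fixed block adjusted p was 0.0605. Cx3cl1, which encodes fractalkine itself, fell by 0.42 (SE 0.112, adjusted p = 0.0139).

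Fcgr2a encodes a low-affinity receptor for IgG. Its level was 3.06, 3.16 and 3.12 in the oil rats and 2.83, 2.63 and 2.85 in the BDCM rats of the CO2-O2 experiment. The isoflurane values were 3.45, 3.44 and 3.48 with oil and 3.17, 2.98 and 3.16 with BDCM. These were among the narrowest groups of the set, with an SD of 0.021 to 0.119, and no BDCM rat reached an oil rat of its own experiment. The mean fell by 0.35 (SE 0.059, adjusted p = 0.0012) and was called in both experiments. The CO2-O2 call was lost without oil rat 2 or 3 or BDCM rat 2 of that experiment (adjusted p up to 0.0631), and the isoflurane call with the slide as a fixed block (adjusted p = 0.0803). Its value is uncertain in 1 respect: the second probe of the gene gave -0.04 and was not called. Averaging both probes gave -0.20 in the mean effect, with an adjusted p of 0.0951. Both single-experiment calls were then lost, at -0.23 under CO2-O2 (adjusted p = 0.2097) and -0.16 under isoflurane (adjusted p = 0.3588). Fc receptor genes are near-identical neighbours, and the RefSeq table lists Fcgr3 and Fcgr3a as synonyms of this gene, so the signal of other Fc receptor transcripts cannot be told apart from it.

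**Figure D3:**
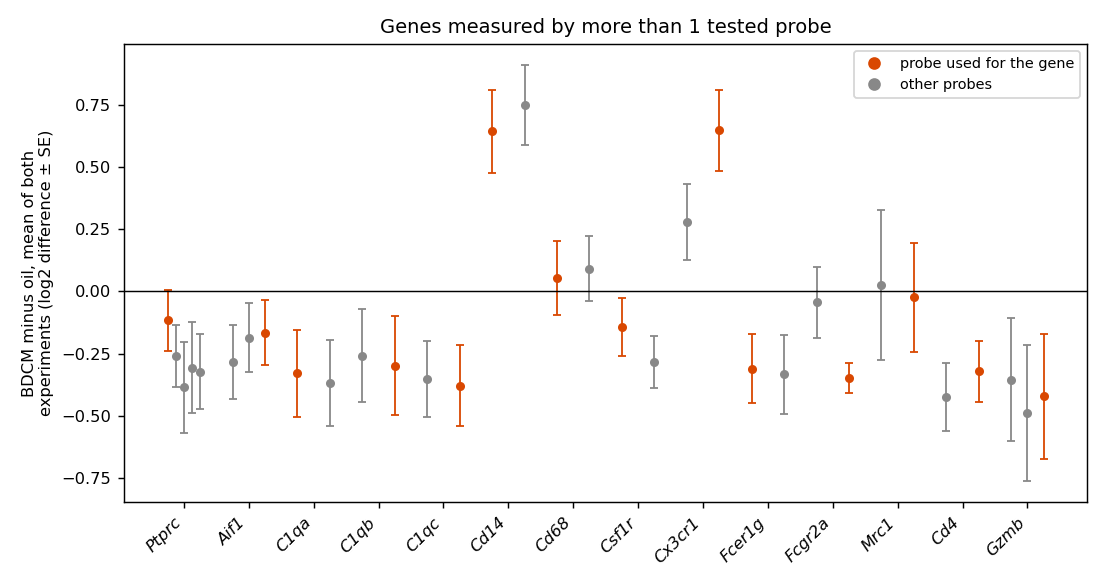
Difference between BDCM and oil rats for each tested probe (mean of both experiments, log2 scale, vertical axis, with SE) of the 14 genes with more than 1 tested probe; orange marks the probe with the highest mean signal, which stands for the gene. The probes of 13 of the 14 genes share a sign, and those of Fcgr2a and Cx3cr1 differ most from each other.

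Signalling adaptors and complement genes of macrophages were not called. Fcer1g, the adaptor chain of Fc receptors, differed by -0.31 (SE 0.139, adjusted p = 0.1034), and Tyrobp, the adaptor DAP12, by -0.13 (SE 0.113, adjusted p = 0.4013). C1qa, C1qb and C1qc, which encode the 3 chains of C1q and lie next to each other in the RefSeq table, differed by -0.33, -0.30 and -0.38, with adjusted p of 0.1635, 0.2636 and 0.0920. BDCM rat 1 of the CO2-O2 experiment and BDCM rat 2 of the isoflurane experiment had the 2 lowest values of each chain. For C1qa these were 1.73 and 1.45, where all other rats lay between 1.92 and 2.58.

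Markers that are commonly used to count macrophages were not called either. Cd68, a lysosomal glycoprotein of macrophages, was at 0.90, 1.01 and 1.17 in the oil rats and 0.76, 1.07 and 1.47 in the BDCM rats of the CO2-O2 experiment. In the isoflurane experiment it was 1.23, 0.64 and 1.12 with oil and 0.88, 0.87 and 1.33 with BDCM. The groups overlapped, the mean difference was 0.06 (SE 0.149, adjusted p = 0.7983), and its 95% confidence interval ran from -0.28 to 0.39. Csf1r, the receptor for the macrophage growth factor CSF1, differed by -0.14 (SE 0.118, adjusted p = 0.3664). Aif1, the actin-binding protein Iba1, differed by -0.17 (SE 0.133) and Adgre1, a surface receptor used to stain tissue macrophages, by -0.33 (SE 0.251). Mrc1, the mannose receptor, differed by -0.02 (SE 0.221).

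Itgam, the integrin chain CD11b of monocytes and neutrophils, had the widest interval of the class, from -0.88 to 1.40. Its values ran from -6.60 to -2.81 over the 12 rats, and 10 of the 12 arrays were well above background. Its isoflurane difference was 0.49, and 0.22 with dim signals raised to the lowest level well above background. Cd163, the scavenger receptor for haemoglobin, did not pass the filter: its brightest probe was well above background on 2 of the 12 arrays, those of BDCM rats 1 and 3 of the CO2-O2 experiment (-5.93 and -5.23). Without a filter its difference was 1.13 in that experiment (SE 0.403, adjusted p = 0.1155) and -0.63 in the isoflurane experiment (SE 0.403, adjusted p = 0.3736). No array of an oil rat was well above background, so neither difference has a measured oil level.

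All 7 T cell genes tested were lower on average under BDCM, with a median of -0.29, against -0.045 over all features. In the mean effect 1 of them was called (all features: 20.4% called lower). Cd2, an adhesion receptor of T and NK cells, was at -5.31, -4.81 and -4.61 in the oil rats and -5.34, -5.19 and -5.54 in the BDCM rats of the CO2-O2 experiment. With isoflurane its level was -4.25, -4.40 and -5.27 with oil and -5.14, -6.23 and -5.46 with BDCM. Both experiments had 1 oil rat within the range of the BDCM rats. The mean fell by 0.70 (SE 0.23, adjusted p = 0.0342), and 11 of the 12 arrays were well above background. The call was lost without any 1 of 7 rats (oil rats 2 and 3 and BDCM rats 1 and 3 of the CO2-O2 experiment, oil rats 1 and 2 and BDCM rat 2 of the isoflurane experiment), with adjusted p up to 0.0794. It was also lost with the slide as a fixed block, where the difference was -0.35 (adjusted p = 0.4348). With normexp background correction the difference was smaller, at -0.27, and the call was kept. The isoflurane difference was -0.97, and -0.81 with dim signals raised.

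Cd3e, the epsilon chain of CD3, was at -5.48, -4.76 and -4.33 in the oil rats and -5.31, -6.97 and -6.45 in the BDCM rats of the isoflurane experiment. It fell there by 1.38 (SE 0.419, adjusted p = 0.0349). The gene was well above background in 1 of the 3 BDCM rats, and with dim signals raised to the lowest level well above background the difference was -0.85; with normexp background correction it was -0.42. That call was lost without oil rat 3 of the CO2-O2 experiment or without oil rats 2 or 3 or BDCM rats 2 or 3 of the isoflurane experiment, with adjusted p up to 0.1337. It was also lost with the slide (adjusted p = 0.1155) or the scan day (adjusted p = 0.0838) as a fixed block. In the CO2-O2 experiment the values were -4.95, -5.17 and -5.02 with oil and -4.87, -5.73 and -4.94 with BDCM, a difference of -0.13 (SE 0.419).

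The other CD3 chains lay on brighter probes and were not called. Cd3d differed by -0.10 (SE 0.067) and Cd3g by -0.26 (SE 0.191) in the mean effect. Cd4, the co-receptor of helper T cells and of some rat macrophages, differed by -0.32 (SE 0.124, adjusted p = 0.0636), and its second probe was called at -0.43 (SE 0.136, adjusted p = 0.0313). Cd8a, the co-receptor of cytotoxic T cells, differed by -0.17 (SE 0.224) and Lck, the kinase that acts on CD3, by -0.29 (SE 0.127, adjusted p = 0.1008). Cd8a was well above background on 11 of the 12 arrays, and its isoflurane difference was -0.54 with or without dim signals raised. Cd5 was well above background on 6 of the 12 arrays and was not tested.

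Of the B cell genes only Cd79b, a chain of the B cell receptor, could be tested. It was well above background on 8 of the 12 arrays, with values from -6.89 to -4.94, and differed by 0.31 (SE 0.279, adjusted p = 0.4175). Its isoflurane difference was 0.36, and 0.11 with dim signals raised. Both cytotoxic genes were well above background on all 12 arrays. Nkg7, a granule membrane protein, differed by -0.03 (SE 0.123) and Gzmb, the granule protease granzyme B, by -0.42 (SE 0.251, adjusted p = 0.2128).

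Among the 4 neutrophil genes tested, Padi4 fell and the other 3 were not called in the mean effect (all features: 17.7% higher and 20.4% lower). Padi4 encodes a peptidylarginine deiminase that modifies histones in neutrophils. It was at -2.28, -2.04 and -2.53 in the oil rats and -2.47, -4.44 and -4.83 in the BDCM rats of the CO2-O2 experiment. The isoflurane values were -3.14, -3.43 and -3.65 with oil and -5.05, -4.93 and -5.05 with BDCM. In the CO2-O2 experiment BDCM rat 1 lay within the oil range and the other BDCM rats below it, while under isoflurane all 3 BDCM rats were below the oil rats. The mean fell by 1.61 (SE 0.34, adjusted p = 0.0042), and all 12 arrays were well above background.

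The fall of Padi4 in the mean effect kept its call without each of the 12 rats in turn (adjusted p from 1.147e-05 to 0.0121). Within the experiments it was -1.63 (SE 0.481, adjusted p = 0.0387) under CO2-O2 and -1.60 (SE 0.481, adjusted p = 0.0339) under isoflurane. The CO2-O2 call was lost without any 1 of 10 rats, all but BDCM rat 1 of the same experiment and BDCM rat 2 of the isoflurane experiment, and without the former it was -2.35 (adjusted p = 0.0003668). The isoflurane call was lost without any 1 of the 6 rats of that experiment (adjusted p up to 0.0994). Both calls were lost with the slide as a fixed block (adjusted p = 0.1159 under CO2-O2 and 0.3343 under isoflurane) and with the scan day as a fixed block (0.0862 and 0.0776). With normexp background correction the mean difference was smaller, at -0.96, and its call was kept.

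**Figure D4:**
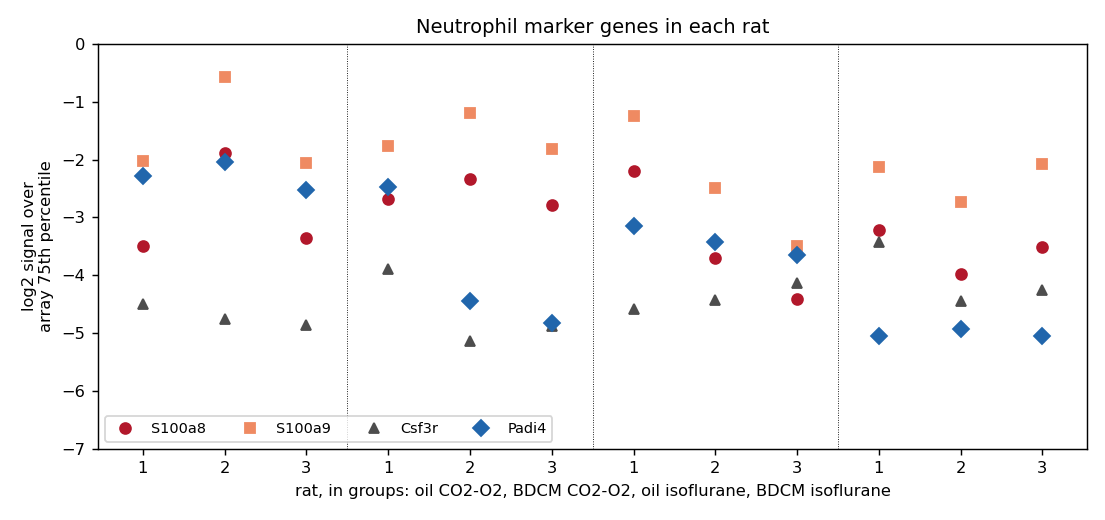
Levels of S100a8, S100a9, Csf3r and Padi4 in each of the 12 rats (log2 signal relative to the array's 75th percentile, vertical axis), in 4 groups of 3 separated by dotted lines. Padi4 lies lowest in the BDCM rats except rat 1 of the CO2-O2 experiment, while S100a8 and S100a9 overlap between oil and BDCM rats of each experiment; heights are comparable within a gene only.

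S100a8 and S100a9 varied widely within groups. S100a9 was at -2.02, -0.57 and -2.06 in the oil rats and -1.77, -1.20 and -1.82 in the BDCM rats of the CO2-O2 experiment. In the isoflurane experiment it was -1.24, -2.49 and -3.49 with oil and -2.12, -2.74 and -2.07 with BDCM. Oil and BDCM rats overlapped in each experiment, and the mean difference was 0.02 (SE 0.387, adjusted p = 0.9673). S100a8 differed by 0.08 (SE 0.388, adjusted p = 0.8835), and the same 3 rats were highest for both genes: oil rat 2 and BDCM rat 2 of the CO2-O2 experiment and oil rat 1 of the isoflurane experiment. Csf3r, the receptor for the neutrophil growth factor G-CSF, differed by 0.21 (SE 0.235, adjusted p = 0.5232).

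The level of each class was described as the mean, over its tested genes, of each array's difference from the 12-array mean, with no test. The macrophage class averaged 0.11 ± 0.095 (SD, n = 3) in oil and 0.08 ± 0.295 in BDCM rats of the CO2-O2 experiment, and -0.05 ± 0.186 and -0.14 ± 0.095 in the isoflurane experiment. BDCM rat 1 of the CO2-O2 experiment was lowest of its group, at -0.25, and without it the BDCM minus oil difference of the class went from -0.06 to 0.02. The T cell class averaged 0.11 ± 0.113 and -0.09 ± 0.068 in oil and BDCM rats under CO2-O2, and 0.26 ± 0.095 and -0.28 ± 0.401 under isoflurane. All BDCM rats were below all oil rats in both experiments, narrowly under CO2-O2 (highest BDCM rat -0.04, lowest oil rat -0.02). BDCM rat 2 of the isoflurane experiment was the lowest of all, at -0.69. The largest isoflurane differences of the class were those of Cd3e (-1.38) and Cd2 (-0.97), which were not well above background in every BDCM rat. The other genes of the class differed there by -0.54 (Cd8a) to -0.03 (Cd3d). With normexp background correction the BDCM minus oil difference of the T cell class went from -0.37 to -0.17.

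The pan-leukocyte class averaged 0.23 ± 0.171 and 0.02 ± 0.185 in oil and BDCM rats under CO2-O2, and -0.02 ± 0.142 and -0.23 ± 0.255 under isoflurane. In the neutrophil class the averages were 0.44 ± 0.475 and 0.11 ± 0.446 under CO2-O2 and -0.11 ± 0.572 and -0.43 ± 0.28 under isoflurane. The lower BDCM averages of this class rest on Padi4: the other 3 genes differed by 0.02 to 0.21 in the mean effect, and the median over the 4 genes was 0.05. The cytotoxic and NK class averaged -0.14 ± 0.099 and -0.36 ± 0.323 under CO2-O2 and 0.37 ± 0.373 and 0.13 ± 0.439 under isoflurane. Oil and BDCM rats overlapped in each of these 3 classes in both experiments.

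**Figure D5:**
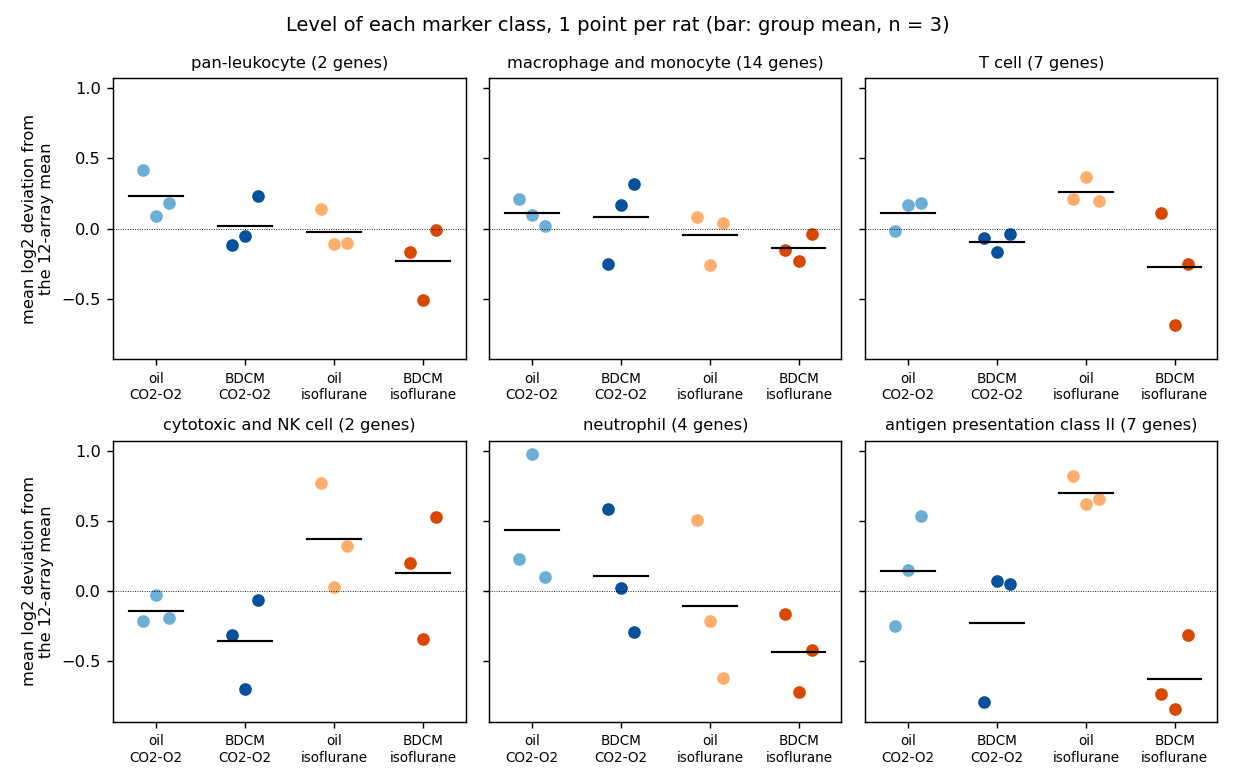
Mean level of each marker class in each rat, as the log2 deviation from the 12-array mean (vertical axis), with bars at the mean of 3 rats; the class II genes are shown for comparison and the single B cell gene tested is left out. The macrophage and neutrophil points overlap between oil and BDCM, and the class II points separate most under isoflurane. The T cell points of BDCM rats lie below those of oil rats of the same experiment, narrowly under CO2-O2.

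Further pan-leukocyte, macrophage, T and NK, B and plasma, neutrophil, mast cell and eosinophil genes, listed by name, had 73 genes tested. Of these 2 rose and 5 fell in the mean effect (all features: 17.7% higher and 20.4% lower), with a median of -0.10. Cytip, a scaffold protein of lymphocytes, rose by 0.46 (SE 0.079) and Spib, an ETS factor of B cells, by 0.40 (SE 0.087). Vav1, an exchange factor in blood cells, fell by 0.35, Ncf1, a subunit of the phagocyte oxidase, by 0.28 and Ccr7, the homing receptor of T and dendritic cells, by 0.50. Prtn3, a neutrophil granule protease, fell by 0.39 and Tpsb2, a mast cell tryptase, by 0.56.

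Class II genes, whose products present antigen to helper T cells, were read as a list of their own. Of the 7 tested, none was called under CO2-O2. All 7 fell under isoflurane (median -1.17, all features: 12.9% lower), and 6 fell in the mean effect (all features: 20.4% lower). The difference between the experiments was not called for any of them. Ciita, the factor that drives class II transcription, was at -2.09, -1.78 and -1.42 in the oil rats and -3.31, -2.17 and -2.34 in the BDCM rats of the CO2-O2 experiment. With isoflurane its level was -1.38, -1.50 and -1.70 with oil and -3.50, -3.62 and -3.54 with BDCM. It fell by 1.43 in the mean effect (SE 0.189, adjusted p = 0.0002755), with no overlap in either experiment. Cd74, the class II invariant chain, fell by 1.05 (SE 0.183, adjusted p = 0.0014), and RT1-DMb and RT1-DMa, which load peptide onto class II molecules, fell by 0.87 and 0.73.

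Of 17 genes for chemoattractants and growth factors of leukocytes tested, 3 rose and 2 fell in the mean effect (all features: 17.7% higher and 20.4% lower). Ccl2, the monocyte chemoattractant MCP-1, rose by 1.21 (SE 0.345, adjusted p = 0.0192). It was at -1.69, -1.52 and -1.10 in the oil rats and -0.36, -0.23 and 1.22 in the BDCM rats of the CO2-O2 experiment, where it was called. The isoflurane values were -0.35, -1.64 and -2.17 with oil and -0.41, -0.85 and -0.57 with BDCM, and was not called. Cxcl1, a neutrophil chemoattractant, rose by 1.66 (SE 0.428, adjusted p = 0.0119) and was not called under isoflurane. Its isoflurane values were -3.07, -4.15 and -5.12 with oil and -2.77, -3.38 and -2.87 with BDCM. Cxcl9, a T cell chemoattractant, fell by 0.86 (SE 0.259, adjusted p = 0.024). Its group means were -3.535 with oil and -5.009 with BDCM under isoflurane. Under CO2-O2 they were -3.843 and -4.095, and oil and BDCM rats overlapped.

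Between the oil controls of the 2 experiments, Fcgr2a was 0.34 higher under isoflurane (SE 0.083, adjusted p = 0.0271) and none of the other 29 genes was called (all features: 7.53% higher and 3.56% lower). The mean of both Fcgr2a probes gave no difference (-0.003), and the call was lost without any 1 of the 6 oil rats (adjusted p up to 0.1002). Padi4 was 1.12 lower (SE 0.481, adjusted p = 0.1662). The experiments shared no slide and no scan day, so anaesthetic, slide, scan day and experiment cannot be told apart.

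Arrays resembled each other in quality: 67.4 to 72.5% of 61657 probes were well above background, and the 75th percentile of the signal ran from 1080 to 1476. Slides did not balance the groups. Slide 1 held the oil rats and BDCM rat 2 of the CO2-O2 experiment, and slide 4 oil rat 3 and BDCM rats 1 and 2 of the isoflurane experiment. With the slide as a fixed block, Cd14 (0.83, adjusted p = 0.0198) and Fcgr2a (-0.44, adjusted p = 0.0105) kept their calls in the mean effect, while Padi4 was at -1.75 with an adjusted p of 0.0586. With the scan day as a fixed block, Cd14, Fcgr2a and Padi4 kept their calls in the mean effect, and Cx3cr1 (adjusted p = 0.0696), Laptm5 (0.0644) and Cd2 (0.1458) lost theirs.

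Within slide 1, Cd14 in BDCM rat 2 (0.66) was above the 3 oil rats, and Fcgr2a (2.63) and Padi4 (-4.44) were below them. Within slide 4, Cd14 in BDCM rats 1 and 2 (-0.16 and -0.12) was above oil rat 3 (-0.54). The same 2 rats were below oil rat 3 for Fcgr2a (3.17 and 2.98 against 3.48) and Padi4 (-5.05 and -4.93 against -3.65). The other slides held 1 group each.

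Markers of other cells were read on the same arrays, where 17.7% of all features were called higher and 20.4% lower in the mean effect. All 12 proximal tubule genes fell (median -0.77). Slc34a1, the phosphate transporter, fell by 0.25 and Slc5a2, the glucose transporter, by 0.77. Of 7 endothelial genes 3 fell (median -0.21), and Pecam1 differed by -0.11 (adjusted p = 0.3125). Of 6 red blood cell genes 2 fell and 1 rose, and Hbb, the beta chain of haemoglobin, fell by 0.80 (adjusted p = 0.0054). Of the 3 platelet genes none was called, and Pf4 differed by -0.44 (adjusted p = 0.0715). The mean level over the red blood cell genes was formed like the class levels. It ran from 0.19 to 0.50 in oil and -0.07 to 0.10 in BDCM rats under CO2-O2. Under isoflurane it ran from -0.37 to 0.30 and from -0.64 to 0.12. The part of blood content and of the tubule's change in the leukocyte values was not tested.

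Transcripts typical of liver were measured as well. The mean level over 14 hepatocyte genes was formed like the class levels. It ran from -0.05 to 1.58 in oil and 1.1 to 1.35 in BDCM rats of the CO2-O2 experiment. In the isoflurane experiment it ran from -1.55 to -0.80 and from -1.70 to 0.20. Alb, which encodes albumin, ran from -8.07 to 1.66 over the 12 rats. Without the 2 isoflurane rats that were highest for these genes, oil rat 3 and BDCM rat 1, 6 of the 30 leukocyte genes were called in the mean effect, 2 of them higher. Laptm5 was then not called (adjusted p = 0.0752), and Cd3e was called. The rats of the CO2-O2 experiment, at -0.05 to 1.58, all stayed in this fit, while oil rat 3 left out was at -0.80. The fit therefore cannot show the part of liver transcripts in the leukocyte values, which was not tested.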

How the data were processed

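Renal cortex RNA of 12 rats was measured on 1-colour Agilent arrays. The authors' scanner files hold intensity values, background-subtracted in Agilent Feature Extraction (version 10.7 in the submitters' processing notes and 10.7.1.1 per the file headers). The deposited value table holds a ratio, each array's signal over its 75th percentile; its 6 CO2-O2 columns equal the signals of another rat of the same group, so it served as an alternative only and rats are numbered by their scanner files.

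The log2 of each deposited signal was taken, less the log2 of that array's 75th percentile. Outlier spots were left out. A feature was kept where some group had it well above background in all of its 3 rats, and the brightest probe stood for a gene. Of 33356 probes with an accession, 27460 matched a symbol in the RefSeq gene list (GRCr8). The fit used limma 3.58.1 in R 4.3.3 (with data.table, version 1.17.8), with 1 mean per group; figures used matplotlib 3.10.9 in Python 3.11.15. A gene dim in some arrays of a group is also given with its signals raised to the lowest one well above background on that array. The steps were tested on simulated data.

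The members and lists were chosen with earlier results of these data known. All 36 members are accounted for; from each other list at most 4 genes are named, those called in the mean effect with the lowest adjusted p, plus the first measured gene of the red blood cell, platelet, endothelial, hepatocyte and proximal tubule lists. Spi1 is named as background, and Cx3cl1 through that rule.

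Alternatives changed scaling, background correction (normexp, offset 50, on median spot signals), filter, probe choice, array weights, slide or scan day as a block, replicate number as a block, and left out each rat. Rats with the same replicate number in different groups deviated from their group means with correlations of -0.06 to 0.23 over 18 pairs, 2 of them over 0.1, so the numbers were not used as pairs. The number of arrays limits the precision.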

Additional observations from a re-analysis of the deposited data

How the results depend on the processing

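The difference between the experiments' effects gave 0 called leukocyte genes under all 26 alternatives run. In the mean effect 6 genes were called, with 2 under the slide as a fixed block (1 higher, 1 lower), 3 under the scan day as a fixed block, and 4 to 7 when each rat was left out. In the CO2-O2 effect 3 were called, with 1 without a filter, 1 when only the groups compared were fitted, and 0 to 3 when each rat was left out. Leaving out the 2 isoflurane rats that ranked highest within that experiment for liver transcripts gave 1, an alternative chosen after seeing the data. In the isoflurane effect 3 were called, with 1 without a filter, 0 under the slide block, 1 under the scan day block, and 1 to 4 when each rat was left out. Between oil controls 1 was called, with 0 under median scaling, without a filter, with the mean of probes, and without the same 2 isoflurane rats. The count was 2 when only the groups compared were fitted, and 0 to 2 when each rat was left out. Among called values, Fcgr2a between controls turned its sign, to -0.003 with the mean of probes. The 90 alternatives to the class levels moved each BDCM minus oil difference by less than the SD between rats pooled over the 4 groups, although the macrophage difference of -0.06 turned to 0.02 without BDCM rat 1 of the CO2-O2 experiment and the T cell difference of -0.37 went to -0.17 with normexp. With the replicate block 6 genes were called in the mean effect, 2 under CO2-O2 and 3 under isoflurane; Cd14 under CO2-O2 (adjusted p = 0.0604) and Cd2 in the mean effect (adjusted p = 0.0561) lost their calls. Apart from effects that the alternative's own construction shows (fewer samples, more features tested), the cause was not tested. Slide and scan day could not be fitted as fixed blocks between oil controls, since no slide held both experiments (1 gene was called with the slide as a random block), and the fit to only the groups compared was not run for the mean effect or the difference. Signals near background limit Itgam, Cd3e, Cd8a, Cd2 and Cd79b, which were not well above it on every array.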
